A study of Mus musculus with 4 samples.

Results

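A set of 10 genes of pulmonary surfactant and of the alveolar type 2 cell that makes it were followed by name through single-cell RNA sequencing of mouse lung: Sftpa1, Sftpb, Sftpc, Sftpd, Lamp3, Abca3, Slc34a2, Napsa, Cxcl15 and Lpcat1. All 10 symbols were found among the 32285 genes of the files. The lungs came from male wild-type C57BL/6 mice aged 6 to 7 weeks. In the LPS+RT library, mice had 200 µg of E. coli O55:B5 lipopolysaccharide (LPS), a bacterial endotoxin that inflames the lung, put into the trachea, and their thorax received 1 Gy of X-rays on the following day. The LPS library had the endotoxin alone. The PBS+RT library had 100 µL of phosphate-buffered saline in place of LPS and the same X-rays, and the PBS library had saline alone. Lungs were taken 48 h after injection, which is 24 h after irradiation, and all 4 preparations passed a Ficoll 1.084 density gradient that enriches mononuclear cells, so the share of epithelial cells is not that of the intact lung. There was 1 library per group, and the number of mice behind a library is not stated. No group therefore has a replicate, and no test, p-value or standard deviation between samples is given. The 95% intervals below are exact and cover counting error only.

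Alveolar type 2 cells line the air sacs, store surfactant in lamellar bodies and secrete it as a film that keeps the alveolus open. SP-B and SP-C, encoded by Sftpb and Sftpc, are small hydrophobic proteins that spread the lipid film. SP-A and SP-D, encoded by Sftpa1 and Sftpd, are collectins that bind microbes and help to clear them. Abca3 carries phospholipid into the lamellar body, Lamp3 is a membrane protein of that organelle, Napsa encodes napsin A, an aspartic protease that takes part in trimming the SP-B precursor, and Lpcat1 makes the saturated phosphatidylcholine of surfactant. Slc34a2 is the phosphate transporter of the type 2 cell, and Cxcl15 (lungkine) is a chemokine of mouse lung epithelium. The transcription factor NKX2-1 is known to drive several of these genes.

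On mm10, with GENCODE M21, 3 of the 4 surfactant protein genes lie on chromosome 14: Sftpa1 at chr14:41131782-41136452, Sftpd at chr14:41172214-41185149 and Sftpc at chr14:70520949-70524081. Sftpb lies at chr6:72304610-72314371, Lamp3 at chr16:19653378-19706375, Abca3 at chr17:24351950-24410201, Slc34a2 at chr5:53038081-53071664, Cxcl15 at chr5:90794534-90803067, Napsa at chr7:44572380-44586862 and Lpcat1 at chr13:73467197-73516422. All 10 are annotated as protein coding, and none overlaps another gene on its own strand.

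The starts of 5 of these genes are shown because the members divided into a group high mainly in type 2-like cells and, for some, airway secretory droplets (Sftpa1, Sftpb and Slc34a2 below) and a group found in many other cells (Abca3 and Lpcat1 below). RefSeq promoter entries on GRCm38.p6 matched 7 of the 10 members, without Sftpc, Sftpd and Napsa. Each line runs 5′ to 3′ on the strand of the gene, from 200 bases before its start to 20 bases after it. Capitals mark matches on either strand to any of 3 motifs. The core bound by NKX2-1 was searched as CTCAAG. A C/EBP site was searched as TTGCNNAA. The TATA box was searched as TATAAA. No match overlaps another, save that the C/EBP match reads the same on both strands.
Sftpa1 (chr14:41131588-41131807, plus strand): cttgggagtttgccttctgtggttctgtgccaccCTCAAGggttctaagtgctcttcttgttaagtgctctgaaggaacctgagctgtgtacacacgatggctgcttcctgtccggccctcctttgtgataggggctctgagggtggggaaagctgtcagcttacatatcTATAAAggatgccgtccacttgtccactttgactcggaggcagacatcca
Sftpb (chr6:72304410-72304629, plus strand): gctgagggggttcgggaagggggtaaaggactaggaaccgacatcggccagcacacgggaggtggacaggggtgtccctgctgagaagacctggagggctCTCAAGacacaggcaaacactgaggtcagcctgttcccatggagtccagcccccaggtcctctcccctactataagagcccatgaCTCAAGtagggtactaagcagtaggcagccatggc
Slc34a2 (chr5:53049153-53049372, plus strand): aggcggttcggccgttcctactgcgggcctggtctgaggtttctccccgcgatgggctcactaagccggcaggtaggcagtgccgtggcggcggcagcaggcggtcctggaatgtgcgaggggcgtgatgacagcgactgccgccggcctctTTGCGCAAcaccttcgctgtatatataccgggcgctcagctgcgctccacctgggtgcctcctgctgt
Abca3 (chr17:24351823-24352042, plus strand): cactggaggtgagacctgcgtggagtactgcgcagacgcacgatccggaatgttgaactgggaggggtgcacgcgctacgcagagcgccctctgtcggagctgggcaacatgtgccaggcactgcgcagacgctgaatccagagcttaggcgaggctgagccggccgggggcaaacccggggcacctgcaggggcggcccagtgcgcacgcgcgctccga
Lpcat1 (chr13:73467031-73467250, plus strand): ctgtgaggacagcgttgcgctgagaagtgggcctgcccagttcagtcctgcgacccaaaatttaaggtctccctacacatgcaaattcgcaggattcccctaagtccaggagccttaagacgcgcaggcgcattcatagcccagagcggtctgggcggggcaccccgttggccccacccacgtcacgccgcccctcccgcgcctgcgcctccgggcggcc

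CTCAAG occurs once in the Sftpa1 window and at 2 places in the Sftpb window, and in none of the other 5 windows. Over all 32851 promoter entries cut to the same length, 11.7% hold it. TTGCNNAA was found only in the Slc34a2 window among the 7, against 8.06% of all entries. TATAAA was found in Sftpa1 and Cxcl15, against 10.5% of all entries. The RefSeq start of Slc34a2 lies inside its GENCODE span, so that window is of an inner start. The Lamp3 window, not printed, is of another gene high mainly in type 2-like cells and held no match to any of the 3 motifs. The 5 printed windows were picked by expression, so whether the motifs go with either group was not tested. These matches describe the letters of the windows and say nothing of whether a factor was bound.

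The 4 libraries held 10996 barcodes for LPS+RT, 9572 for LPS, 6708 for PBS+RT and 10083 for PBS. Of the 37359 barcodes, 33682 cells passed the filters: 9641, 8928, 6206 and 8907 in the same order of libraries, with medians of 4277, 5549.5, 8563.5 and 4293 unique molecular identifiers (UMIs) per cell. Libraries held between 65995600 and 80013887 UMIs. Cells were clustered and classes named without the 10 members, from marker genes, so the level of a member in a class was not used to form that class. Names end in "-like" because they rest on rebuilt clusters.

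The alveolar type 2-like class was 1 cluster of 62 cells, and all 13 markers used to name it passed. It held 15 cells of LPS+RT, 17 of LPS, 19 of PBS+RT and 11 of PBS. These are 0.156% (95% interval 0.0871 to 0.256), 0.19% (0.111 to 0.305), 0.306% (0.184 to 0.478) and 0.123% (0.0617 to 0.221) of the cells in the same order. Among cells with at least 1000 UMIs, the clustering was made anew and the shares were 0.444%, 0.44%, 0.591% and 0.559%. The shallowest of the 62 cells had 9054 UMIs, so that limit itself removed none of them. The new clustering put more droplets into the class, and PBS went from the lowest share to the second highest. The shares and their order thus depended on the clustering. The 62 cells were deep, with medians of 42018, 30756, 34358 and 30886 UMIs. Epcam, an epithelial adhesion gene, and Nkx2-1 had UMIs in 62 of 62 cells, and the leukocyte gene Ptprc had a pooled level of 30.0 CPM (a gene's UMIs over all UMIs of the class, on the usual CPM scale). The 10 members together took 16.2% of the UMIs of type 2-like cells in LPS+RT, 16.5% in LPS, 13.5% in PBS+RT and 15.9% in PBS. In all classes other than type 2-like, secretory-like and unnamed, they took 0.0235%, 0.022%, 0.0199% and 0.0385% in the same order.

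**Figure D1:**
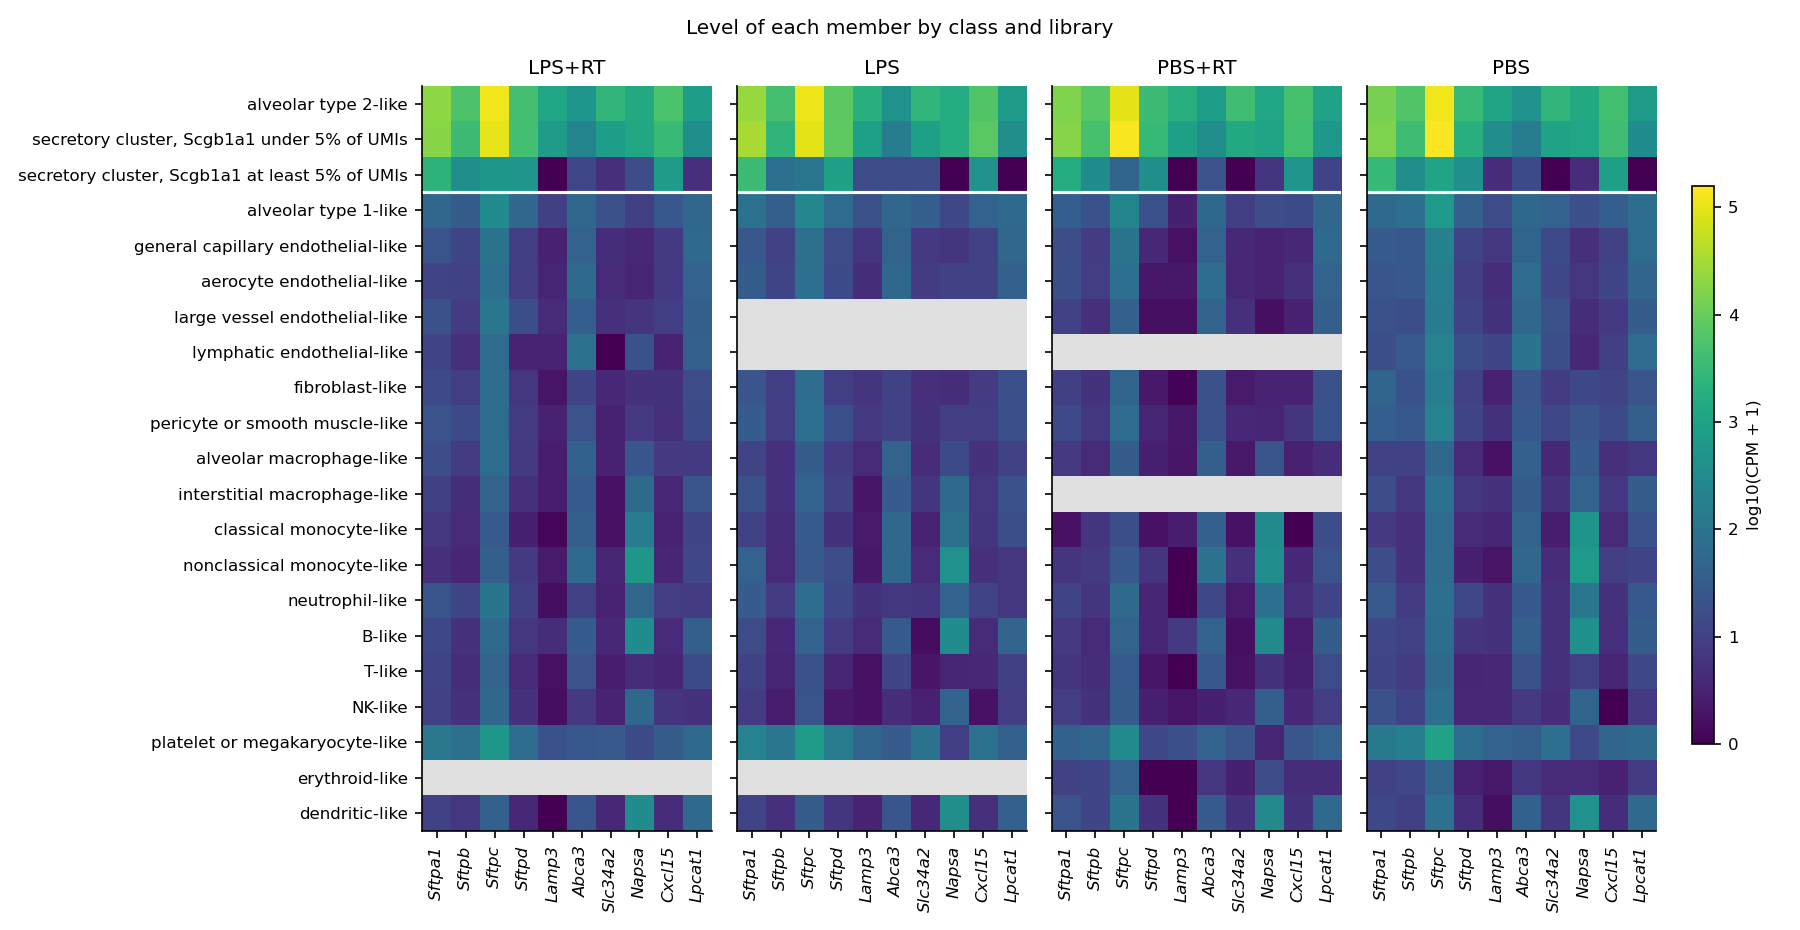
Level of each of the 10 members as log10(CPM + 1), by class (rows) and library (panels), with grey where a class below the white line had under 50 cells. The type 2-like row (LPS+RT Sftpc 119814 CPM) and the row of small droplets below it are high for all 10 genes, and Napsa is also high in nonclassical monocyte-like (563.8 CPM in LPS+RT), dendritic-like and B-like rows.

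Within type 2-like cells, the collectin gene Sftpd had the largest ratio of LPS to PBS among the members, and the collectin gene Sftpa1 was also higher in LPS. Sftpd had 4404 CPM in LPS+RT, 7942 CPM in LPS, 3672 CPM in PBS+RT and 3196 CPM in PBS. LPS was the high library, and the level was 2.48-fold that of PBS (2.32 to 2.66). LPS+RT was 1.8-fold lower than LPS, a ratio of 0.554 (0.528 to 0.582), and 1.2-fold that of PBS+RT (1.14 to 1.27). Single LPS cells ran from 3249 to 10847 CPM of Sftpd with a median of 7824 CPM, against 945 to 5927 CPM with a median of 2891 CPM in PBS. The median LPS cell thus lay above the highest PBS cell, while the ranges overlapped.

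Sftpa1 had 20432 CPM in LPS+RT, 24507 CPM in LPS, 15395 CPM in PBS+RT and 13356 CPM in PBS. Both LPS libraries were above both saline libraries. LPS was 1.83-fold PBS (1.77 to 1.9), and LPS+RT was 1.33-fold PBS+RT (1.29 to 1.36) and 0.834-fold LPS (0.814 to 0.854). Cells ran from 4364 to 34627 CPM in LPS with a median of 25672 CPM, and from 6075 to 25688 CPM in PBS with a median of 11514 CPM, so the ranges overlapped.

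The genes of the hydrophobic proteins differed less. Sftpc was the most abundant member in each library, at 119814 CPM in LPS+RT, 114554 CPM in LPS, 95551 CPM in PBS+RT and 125380 CPM in PBS. PBS+RT was the low library, at 0.762-fold PBS (0.753 to 0.772), and LPS+RT was 1.25-fold PBS+RT (1.24 to 1.27). LPS was 0.914-fold PBS (0.902 to 0.925), and LPS+RT 1.05-fold LPS (1.03 to 1.06). Both of these small differences turn on 1 LPS cell: without it, LPS was 1.01-fold PBS and LPS+RT was 0.948-fold LPS.

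That LPS cell, picked after its values were seen, had 4 Sftpc UMIs among 52476, a level of 76.2 CPM. The next lowest of the 62 cells had 29048 CPM, and the other 16 LPS cells had a lowest level of 41298 CPM and a median of 130153 CPM. At that lowest level, 2167 Sftpc UMIs would have been counted in this cell. It held 368 UMIs of Sftpd, 383 of Cxcl15, 229 of Sftpa1, 125 of Sftpb and 102 of Lamp3, and 11 of the 13 type 2 markers. Its Sftpa1 (4364 CPM) and Napsa (572 CPM) were also the lowest of the LPS cells, and its Sftpb (2382 CPM) was near the lowest. Its Sftpd (7013 CPM) and Lamp3 (1944 CPM) were near the medians of the LPS cells (7824 and 1963 CPM), and its Cxcl15 (7299 CPM) was above the median (5536 CPM).

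Sftpb had 5583 CPM in LPS+RT, 4533 CPM in LPS, 7138 CPM in PBS+RT and 6257 CPM in PBS. Both LPS libraries were below both saline libraries, opposite to Sftpa1 and Sftpd. LPS was 0.724-fold PBS (0.683 to 0.768), and LPS+RT was 0.782-fold PBS+RT (0.749 to 0.817) and 1.23-fold LPS (1.17 to 1.3).

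Among the lamellar body genes, Lamp3 had 1176 CPM in LPS+RT, 2003 CPM in LPS, 1808 CPM in PBS+RT and 1085 CPM in PBS. The single-treatment libraries were high, and the library with both treatments and the one with neither were low. LPS was 1.85-fold PBS (1.64 to 2.09) and PBS+RT was 1.67-fold PBS (1.48 to 1.88), while LPS+RT was 0.587-fold LPS (0.533 to 0.646) and 0.651-fold PBS+RT (0.593 to 0.714). Cells ran from 618 to 2150 CPM of Lamp3 in LPS+RT, 1207 to 3654 CPM in LPS, 927 to 2827 CPM in PBS+RT and 590 to 1757 CPM in PBS.

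Abca3 had 543 CPM in LPS+RT, 469 CPM in LPS, 788 CPM in PBS+RT and 455 CPM in PBS, with PBS+RT high. It was 1.73-fold higher in PBS+RT than in PBS (1.44 to 2.09), and the LPS to PBS ratio of 1.03 had an interval of 0.839 to 1.27. Napsa had 1428 CPM in LPS+RT, 1579 CPM in LPS, 1152 CPM in PBS+RT and 1426 CPM in PBS, a narrow range with PBS+RT lowest.

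Slc34a2 had 2645 CPM in LPS+RT, 2662 CPM in LPS, 4098 CPM in PBS+RT and 2680 CPM in PBS. It was 1.53-fold higher in PBS+RT than in PBS (1.42 to 1.65), and LPS+RT was 0.645-fold PBS+RT (0.607 to 0.686). Lpcat1 had 820 CPM in LPS+RT, 728 CPM in LPS, 986 CPM in PBS+RT and 695 CPM in PBS, again with PBS+RT highest. Cxcl15 had 5213 CPM in LPS+RT, 6108 CPM in LPS, 4789 CPM in PBS+RT and 4143 CPM in PBS. LPS was 1.47-fold PBS for this chemokine (1.38 to 1.57).

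**Figure D2:**
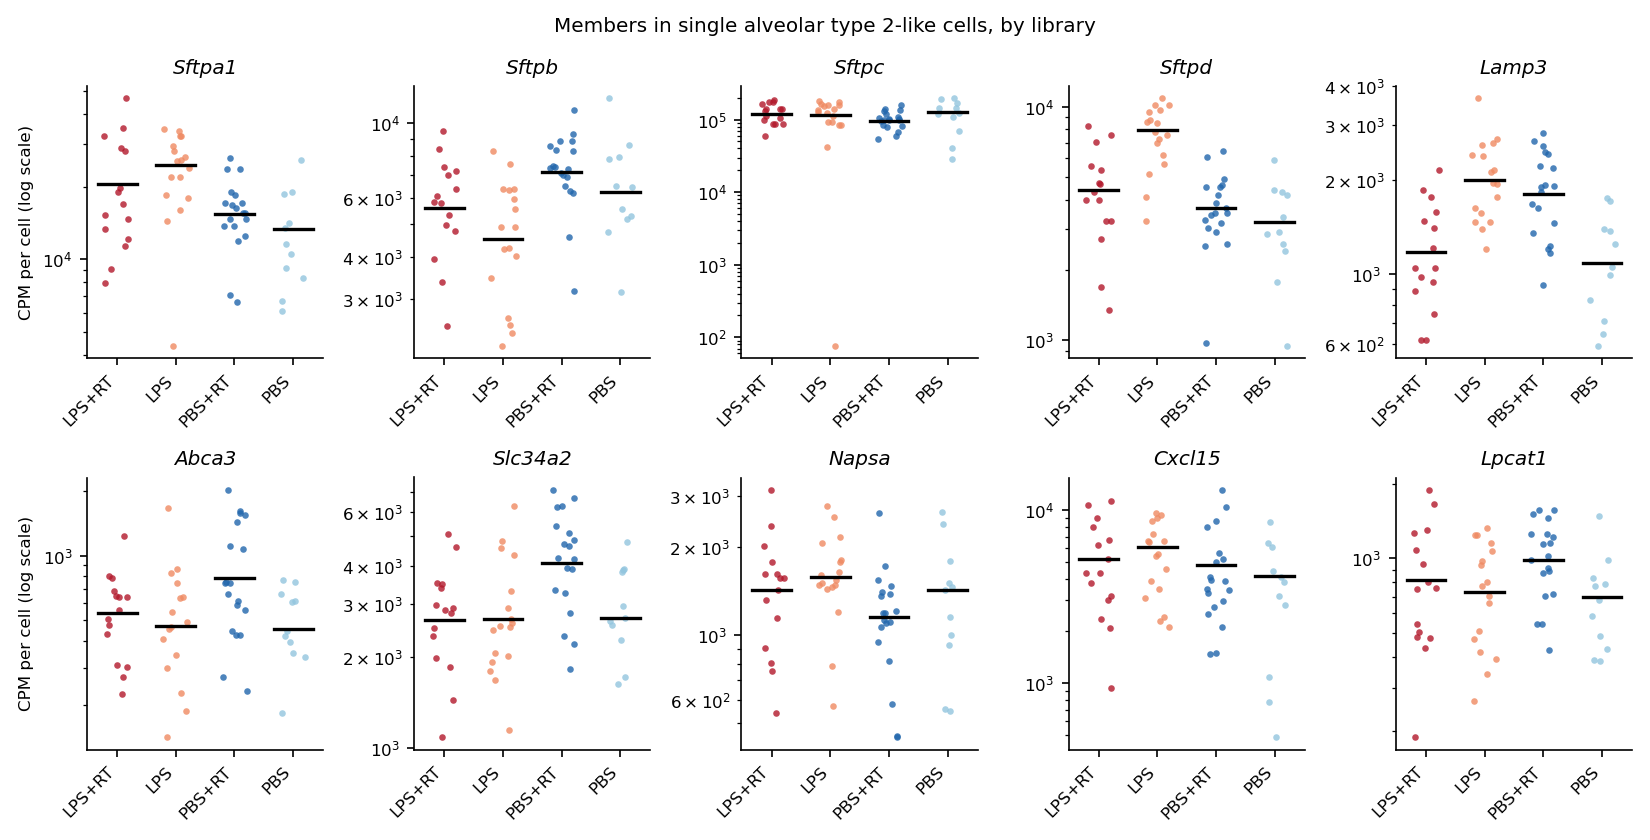
CPM of each member in single type 2-like cells (points, log scale) by library, with the level of the summed cells as a black bar, for 15 LPS+RT, 17 LPS, 19 PBS+RT and 11 PBS cells, without 1 LPS cell at 0 Abca3 UMIs. Sftpd cells of LPS lie mostly above those of the other libraries, and 1 LPS cell sits at 76.2 CPM of Sftpc.

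Differences of 1.5-fold were common among genes of these few cells, and the members' counts are read against that. In LPS+RT against LPS, 22.4% of the 6818 genes at 20 CPM or more were at least 1.5-fold higher and 20.3% lower, and of the 10 members 0 were higher and 2 lower (Sftpd and Lamp3). In LPS against PBS, 20.5% of 6990 genes were higher and 29.9% lower, and 3 members were higher (Sftpa1, Sftpd and Lamp3) and 0 lower. In PBS+RT against PBS, 24.9% of 7149 genes were higher and 27.3% lower, and 3 members were higher (Lamp3, Abca3 and Slc34a2) and 0 lower. In LPS+RT against PBS+RT, 20.6% of 6973 genes were higher and 25.2% lower, and 0 members were higher and 2 lower (Lamp3 and Slc34a2). Lamp3 and Slc34a2 were 1.54-fold and 1.55-fold lower there, near the limit. No share over 10 members is read as a result about them. Scaling by median-of-ratios size factors moved the median ratio up by 0.2 (log2) in LPS against PBS and by 0.15 in PBS+RT against PBS. With it 1207 genes were higher and 668 lower of 3865 in the first, against 1433 and 2092 of 6990 by CPM, and 1526 higher and 811 lower of 4404 in the second, against 1781 and 1951 of 7149 by CPM. With size factors the level limit was 20 scaled counts and not 20 CPM, so fewer genes passed it. The counts by size factors and by CPM are thus of unlike sets of genes, and their splits cannot be compared directly. Sftpc in LPS against PBS changed direction under the size factors (log2 ratio 0.066). Among genes at 400 CPM or more, about the level of the lowest member, the shares higher and lower were 11.6% and 16.7%, 24.0% and 17.3%, 21.6% and 24.6%, and 26.1% and 20.8% in the same order of comparisons. The 4 comparisons share libraries, so their values are not independent of each other.

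The levels of other classes' marker genes in these cells differed between libraries, and which cells these UMIs came from was not tested. The 7 general capillary markers summed to 514 CPM in LPS+RT, 263 CPM in LPS, 182 CPM in PBS+RT and 1039 CPM in PBS type 2-like cells, with 7, 7, 6 and 7 of the 7 detected, and at or over 1000 CPM they marked 3, 1, 0 and 3 cells. Without those 7 cells, PBS+RT had 0 members at least 1.5-fold above PBS: Lamp3 was 1.38-fold, Abca3 1.39-fold and Slc34a2 1.26-fold. In LPS against PBS without them, Sftpd was 2.17-fold, Sftpa1 1.69-fold and Lamp3 1.57-fold, and Sftpb was 1.52-fold lower. The 10 alveolar type 1 markers, all detected in each library, summed to 1667 CPM in LPS+RT, 1928 CPM in LPS, 1851 CPM in PBS+RT and 3393 CPM in PBS, and their part in the PBS values was not tested. The 8 club or secretory markers, of which 7, 5, 7 and 7 were detected, summed to 2530 CPM in LPS+RT, 3354 CPM in LPS, 2890 CPM in PBS+RT and 2038 CPM in PBS. The sum was highest in LPS, as the levels of Sftpd and Sftpa1 were, and the part of these markers in the members' values was not tested. Of the defining markers, Scgb1a1 had 203 CPM in LPS+RT, 73.3 CPM in LPS, 269.2 CPM in PBS+RT and 209 CPM in PBS, lowest in LPS, and Scgb3a2 was at 0 in LPS and at or below 18.4 CPM in the others.

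The rest of the type 2 programme was described with lists around the members. Of the 14 lamellar body, processing and secretion genes, which include 3 members, 11 were measured in LPS against PBS. Of these, 3 were higher and 3 lower by at least 1.5-fold, beside 20.5% and 29.9% of all 6990 genes. Their median log2 ratio was 0.043, beside a median of -0.13 over all genes. Aqp1, a water channel that capillary endothelium also expresses, differed most, with 58.8 CPM in LPS+RT, 19.7 CPM in LPS, 12.5 CPM in PBS+RT and 101 CPM in PBS. PBS and LPS+RT, the libraries highest in Aqp1, were also the highest in capillary markers, and the part of those markers in this gene was not tested. Lyst, a regulator of lysosome-related organelles, had 98.4 CPM in LPS and 33.8 CPM in PBS. Between LPS+RT and LPS, 3 of 11 were higher and 4 lower, beside 22.4% and 20.3% of all genes. The median was -0.34 beside -0.028 for all genes. Vamp8, a membrane fusion protein of secretion, had 366 CPM in LPS+RT and 735 CPM in LPS.

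Of the 23 lipid synthesis genes, which include Lpcat1, 20 were measured in LPS against PBS, with a median log2 ratio of 0.044. Of these, 4 were higher and 3 lower, beside 20.5% and 29.9% of all genes. Lpl, lipoprotein lipase, had 46.5 CPM in LPS and 129 CPM in PBS. Fabp5, a fatty acid binding protein, had 1733 CPM in LPS and 793 CPM in PBS (2.19-fold, 1.9 to 2.52). For LPS+RT against LPS, 2 of 22 were higher and 6 lower, with a median of -0.11, beside 22.4% and 20.3% of all genes. Scd1, the stearoyl-CoA desaturase, had 2122 CPM in LPS+RT and 3899 CPM in LPS, and Fabp5 had 890 CPM in LPS+RT and 1733 CPM in LPS. For LPS+RT against PBS+RT, 1 of 22 was higher and 4 lower, beside 20.6% and 25.2% of all genes. In PBS+RT against PBS 6 were higher and 5 lower, beside 24.9% and 27.3% of all genes.

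Of the 15 transcription factors of the type 2 programme, 1 was higher and 4 lower in LPS against PBS, beside 20.5% and 29.9% of all genes. In LPS+RT against LPS, 5 were higher and 1 lower, beside 22.4% and 20.3% of all genes. Their median log2 ratios were -0.3 and 0.21 in the same order, beside -0.13 and -0.028 for all genes. Cebpb and Cebpd, leucine zipper factors of the acute response, had 323 and 761 CPM in LPS+RT, and 127 and 354 CPM in LPS. In the saline libraries they had 97.1 and 340 CPM in PBS+RT, and 258 and 710 CPM in PBS. PBS and LPS+RT, the libraries highest in both genes, were also the highest in capillary markers, whose part in these genes was not tested. Nkx2-1, named here for its known role and not for its size of difference, was between 206 and 244 CPM in the 4 libraries.

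Of the 14 other type 2 genes, 4 were higher and 3 lower in LPS against PBS, beside 20.5% and 29.9% of all genes. Their median log2 ratio was -0.045, beside -0.13 for all genes. Chil1, a chitinase-like secreted protein, had 3154 CPM in LPS+RT, 5697 CPM in LPS, 1462 CPM in PBS+RT and 1146 CPM in PBS, with an LPS to PBS ratio of 4.97 (4.46 to 5.55). Dram1, a lysosomal membrane protein, had 857 CPM in LPS and 522 CPM in PBS. S100g, a calcium-binding protein, had 735 CPM in LPS and 1202 CPM in PBS. Hc, complement component 5, had 917 CPM in LPS+RT, 900 CPM in LPS, 1676 CPM in PBS+RT and 1192 CPM in PBS. These 4 genes are also among the markers that named the class. Of the 13 genes of transitional epithelium, a state seen when type 2 cells turn into type 1 cells, 11 were measured in LPS against PBS. Of these, 4 were higher and 3 lower, beside the same shares of all genes, with a median log2 ratio of 0.24. Sfn (stratifin) had 87.6 CPM in LPS and 197 CPM in PBS. The stress gene Nupr1 had 342 CPM in LPS and 605 CPM in PBS. Krt8, a keratin of that state, had 193 CPM in LPS+RT, 317 CPM in LPS, 105 CPM in PBS+RT and 206 CPM in PBS.

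Among the lists, that of epithelial inflammation had the largest median in LPS against PBS and in LPS+RT against PBS+RT. Of its 16 genes, 11 were measured in LPS against PBS, with a median log2 ratio of 2.08. Of these, 8 were higher and 0 lower, beside 20.5% and 29.9% of all genes. Likewise, 8 of 11 were higher and 1 lower in LPS+RT against PBS+RT, beside 20.6% and 25.2% of all genes. The median there was 2.65, beside -0.077 for all genes. In LPS+RT against LPS 3 of 12 were higher and 6 lower, with a median of -0.63, beside 22.4% and 20.3% of all genes. Lcn2, an antibacterial siderophore-binding protein, had 4854 CPM in LPS+RT, 12643 CPM in LPS, 776 CPM in PBS+RT and 313 CPM in PBS, and was 40.3-fold higher in LPS than in PBS (33.2 to 49.5). Saa3, an acute-phase protein, had 284 CPM in LPS+RT and 1381 CPM in LPS, with no UMI in PBS+RT or PBS. Cxcl5, a neutrophil chemokine, had 33.6 CPM in LPS+RT and 694 CPM in LPS, where 11 of 17 cells held it, with no UMI in PBS. With 3 counts put in for the PBS value, LPS was 75.3-fold higher, and the lower bound of the interval was 60.9.

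In LPS against PBS, 5 of 12 genes of surfactant uptake by macrophages were measured in type 2-like cells, with 1 higher and 3 lower. Of 10 cell cycle genes 2 were measured, with 1 higher and 1 lower. Over all genes 20.5% were higher and 29.9% lower, and these lists are too short to be read against those shares.

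By the rule for genes with the largest differences, Ly6i, Cxcl5 and Lcn2 were the highest in LPS over PBS, and Crispld2, Tnc and Ccn2 the lowest. Ly6i, a Ly6 family surface protein, had 416 UMIs in 15 of 17 LPS cells and 0 in PBS. With 3 counts put in for 0, LPS was 80.7-fold higher, and the lower bound of the interval was 65.3. Tnc had 61 UMIs in 3 PBS cells and 0 in LPS, and Ccn2 had 1 UMI in LPS and 70 UMIs in 7 PBS cells, so these rested on few cells. In LPS+RT over LPS, Tnfaip6 had 239 UMIs in 5 cells of LPS+RT and 1 UMI in LPS, and the lowest were Cxcl5, Malt1 (34 CPM in LPS+RT, 639 CPM in LPS) and Cd83. In PBS+RT over PBS, Rad51b, Cadm2 and Piwil2 were the highest, and Plat, Tnc and Nbl1 the lowest. Rad51b, a DNA repair gene of homologous recombination, had 117 UMIs in 13 of 19 PBS+RT cells and 0 in PBS. With 3 counts put in for 0, PBS+RT was 17.6-fold higher, and the lower bound of the interval was 14.1. The 3 highest in LPS+RT over LPS were Tnfaip6, Eln and Cacnb2, without Rad51b.

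In classes other than type 2-like and secretory-like, the question was whether a member was expressed or came from RNA that had leaked from type 2 cells into other droplets. RNA of 1 source keeps its genes in 1 ratio, so each member's ratio to Sftpc in a class was divided by the same ratio in type 2-like cells of the library. Over 66 pairs of class and library with at least 50 cells, a lower bound above 2 was met by Abca3 in 65 pairs, Lpcat1 in 65, Napsa in 46, Sftpb in 12, Lamp3 in 12, Slc34a2 in 12, Sftpd in 10, Sftpa1 in 2 and Cxcl15 in 2. The 9 members met it in 226 of 594 cases. Among all genes at 400 CPM or more in type 2-like cells, 93.4% of 17797 gene, class and library cases met it with Sftpc as the yardstick. The reason for that share was not tested.

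Sftpc itself had 28.2 to 574 CPM in the other classes of LPS+RT, 19.2 to 681 CPM in LPS, 16.6 to 301 CPM in PBS+RT and 50.04 to 986 CPM in PBS, with medians of 67.2, 42.9, 44.7 and 87.2 CPM. The highest class in each library was the platelet-like one, whose barcodes had medians of 1750 to 2385 UMIs. The median class level was 0.0561% of the type 2-like level in LPS+RT, 0.0374% in LPS, 0.0468% in PBS+RT and 0.0695% in PBS. In T-like cells, which should lack the gene, 24.0% of LPS+RT, 14.8% of LPS, 24.7% of PBS+RT and 34.0% of PBS cells held an Sftpc UMI, beside 29.2%, 16.7%, 25.5% and 40.4% if the same UMIs were spread evenly by depth. In type 2-like cells, 61 of 62 had Sftpc at 1% of UMIs or more, against 23 of 27954 cells in named classes other than type 2-like and secretory-like, and 11 of 5351 unnamed cells.

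Sftpa1, Sftpb, Sftpd, Cxcl15, Lamp3 and Slc34a2 followed Sftpc through these classes at a low level. Their median ratios over the 66 pairs, relative to type 2-like cells, were 1.34 for Sftpa1, 1.7 for Cxcl15, 2.21 for Sftpd, 2.34 for Sftpb, 2.37 for Slc34a2 and 2.78 for Lamp3. For Sftpb the shift was shared by the classes of a library, with medians of 2.23 in LPS+RT, 3.13 in LPS, 1.38 in PBS+RT and 2.5 in PBS. Judged by Sftpb in turn, Sftpc was below in 12 pairs, with a median ratio of 0.427, and above in 0. With Sftpb as the yardstick in place of Sftpc, 1 case among Sftpa1, Sftpd, Cxcl15, Lamp3 and Slc34a2 met the bound.

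The highest of these ratios was 8.41 for Sftpd, in nonclassical monocyte-like cells of LPS, where Sftpa1 reached 7.21. There 73.0% of the 74 Sftpa1 UMIs and 67.9% of the 28 Sftpd UMIs sat in the top 1% of 160 cells, and 11.9% of cells held Sftpa1 against 35.4% for an even spread. Most of these UMIs thus sat in a few droplets.

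Lamp3 also marks mature dendritic cells in human tissue, so it was looked up there. Dendritic-like cells held 0 Lamp3 UMIs in 103 cells of LPS+RT, 5 in 147 cells of LPS, 0 in 63 cells of PBS+RT and 1 in 104 cells of PBS. In dendritic-like cells with UMIs of both Ccr7 and Fscn1, genes of mature dendritic cells, it had 0 UMIs in 35 LPS+RT cells, 1 in 59 LPS cells, 0 in 8 PBS+RT cells and 0 in 15 PBS cells. General capillary-like cells, which should lack the gene, had 1.95 CPM in LPS+RT, 5.02 CPM in LPS, 0.706 CPM in PBS+RT and 5.63 CPM in PBS. The dendritic-like levels, at most 2.32 CPM, were below these in each library, so Lamp3 expression there was not detectable over background at this depth.

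**Figure D3:**
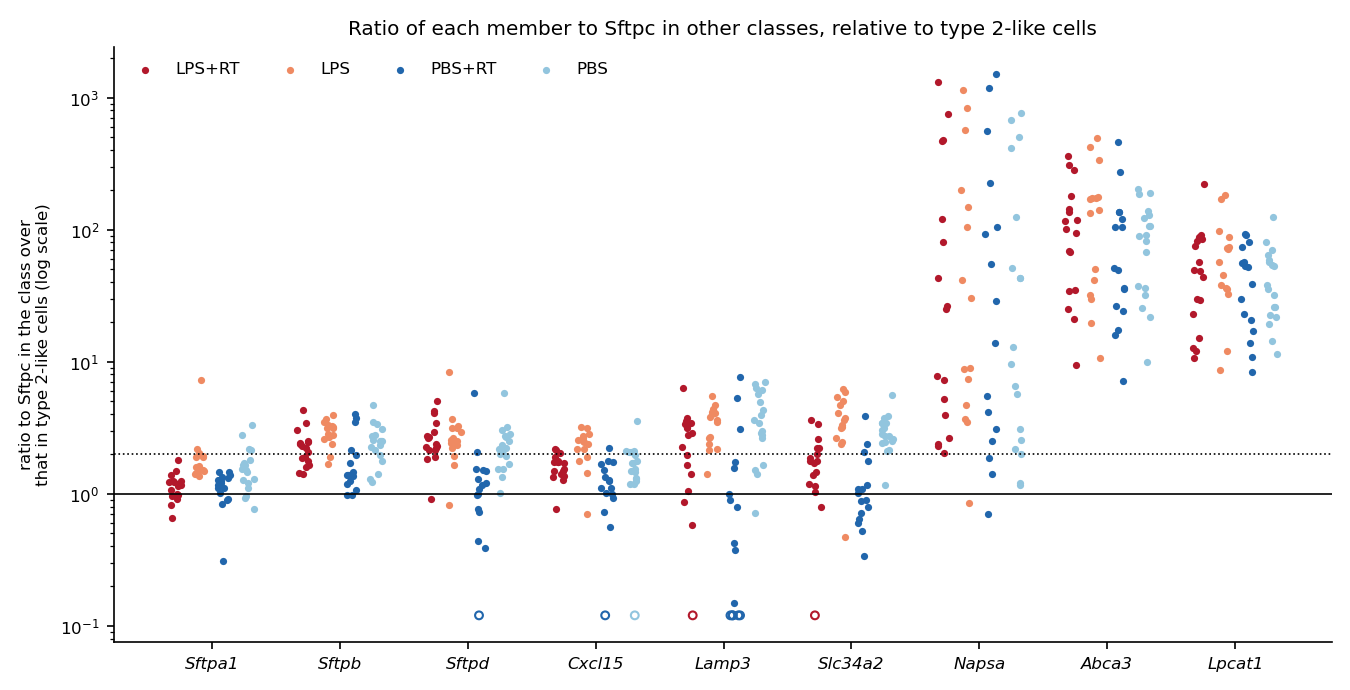
Ratio of each member to Sftpc in a class, divided by that ratio in type 2-like cells of the same library (log scale), with 1 point per class and library, a solid line at 1 and a dotted line at 2, and open circles at the bottom for classes with no UMI. The 6 genes on the left have medians of 1.34 to 2.78, and Napsa, Abca3 and Lpcat1 reach medians of 19.5, 96.9 and 47.1.

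Napsa was high in blood and immune classes. Nonclassical monocyte-like cells, the patrolling monocytes, had 564 CPM in LPS+RT, 433 CPM in LPS, 348 CPM in PBS+RT and 609 CPM in PBS, which was 39.5%, 27.4%, 30.2% and 42.7% of the type 2-like level. A Napsa UMI was found in 92.3%, 94.4%, 83.6% and 93.6% of these cells, against 2.52%, 2.32%, 3.86% and 4.26% of T-like cells, whose median depths were like theirs (7594 to 10580 UMIs against 7524 to 10348). Thinned to 2000 UMIs a cell, the shares were 61.8%, 56.1%, 46.4% and 66.4% of nonclassical monocyte-like cells. The level was lower in LPS than in PBS, and lower in PBS+RT than in either LPS+RT or PBS.

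B-like cells had 338 CPM of Napsa in LPS+RT, 323 CPM in LPS, 291 CPM in PBS+RT and 415 CPM in PBS, with PBS high. Dendritic-like cells had 340, 376, 274 and 427 CPM in the same libraries, also with PBS high and PBS+RT low. Neutrophil-like cells had 51.9, 42.6, 76.7 and 111 CPM, and alveolar macrophage-like cells 23.7, 13.7, 21.8 and 28.2 CPM. That macrophage class was 3 clusters in unequal parts: cluster 6 held 224 of 814 cells in LPS+RT, 7 of 183 in LPS, 671 of 685 in PBS+RT and 571 of 640 in PBS, cluster 17 held 508, 122, 12 and 41, and cluster 36 held 82, 54, 2 and 28. Within cluster 17, the level was 23.5 CPM in LPS+RT, 13.9 CPM in LPS, 46.9 CPM in PBS+RT and 49.6 CPM in PBS, and within cluster 6 it was 28.4, 15.2, 21.3 and 26.2 CPM. T-like cells, with 3.9, 2.37, 4.8 and 9.15 CPM, and capillary classes were at the low end.

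Classical monocyte-like cells had 159 CPM of Napsa in LPS+RT, 82.6 CPM in LPS, 302 CPM in PBS+RT and 495 CPM in PBS, but different clusters filled the class. Cluster 28, with F13a1, Vcan and Ccr2 among its leading genes, had 433 CPM in 92 LPS+RT cells, 366 CPM in 106 LPS cells, 306 CPM in 71 PBS+RT cells and 495 CPM in 90 PBS cells. Cluster 16, led by Arg1, Saa3 and Nos2, had 40.1 CPM in 127 LPS+RT cells and 52.4 CPM in 578 LPS cells, and held 1 PBS+RT cell and 2 PBS cells. The low value of the class in LPS thus went with cluster 16.

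Abca3 was spread over vascular and immune classes, at 1.92 to 94.6 CPM in classes of at least 50 cells. Lymphatic endothelial-like cells had 91.1 CPM in LPS+RT and 94.6 CPM in PBS, and aerocyte-like cells, the large gas-exchange capillary cells, had 62.6 CPM in LPS+RT, 56.9 CPM in LPS, 67.1 CPM in PBS+RT and 63.7 CPM in PBS. Nonclassical monocyte-like cells had 58.8, 55.5, 92.03 and 51.6 CPM in the same libraries. Alveolar macrophage-like cells, which were among the deepest classes, had 40.3, 45.1, 36.7 and 38.6 CPM with a UMI in 61.1%, 77.0%, 52.7% and 54.8% of cells. In their cluster 17, which held most of the class in LPS+RT and LPS, the level was 42.2, 46.8, 33.1 and 50.3 CPM, and in cluster 6, which held most of it in PBS+RT and PBS, 38.0, 22.8, 36.7 and 37.9 CPM. NK-like cells were low, with 6.25, 3.65, 1.92 and 6.35 CPM. The highest class was at 16.8%, 12.1%, 11.7% and 20.8% of the type 2-like level.

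Lpcat1 was found at 3.67 to 74.6 CPM. Alveolar type 1-like cells had 51.5 CPM in LPS+RT, 57.7 CPM in LPS, 52.0 CPM in PBS+RT and 74.6 CPM in PBS, general capillary-like cells had 58.5, 50.7, 57.7 and 68.0 CPM, and dendritic-like cells had 58.5, 38.1, 59.8 and 62.3 CPM. Neutrophil-like cells of LPS had 5.7 CPM and alveolar macrophage-like cells 3.67 to 9.55 CPM. In the general capillary-like class, LPS was below PBS for Lpcat1 and close to it for Abca3 (45.1 CPM in LPS, 46.4 CPM in PBS).

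**Figure D4:**
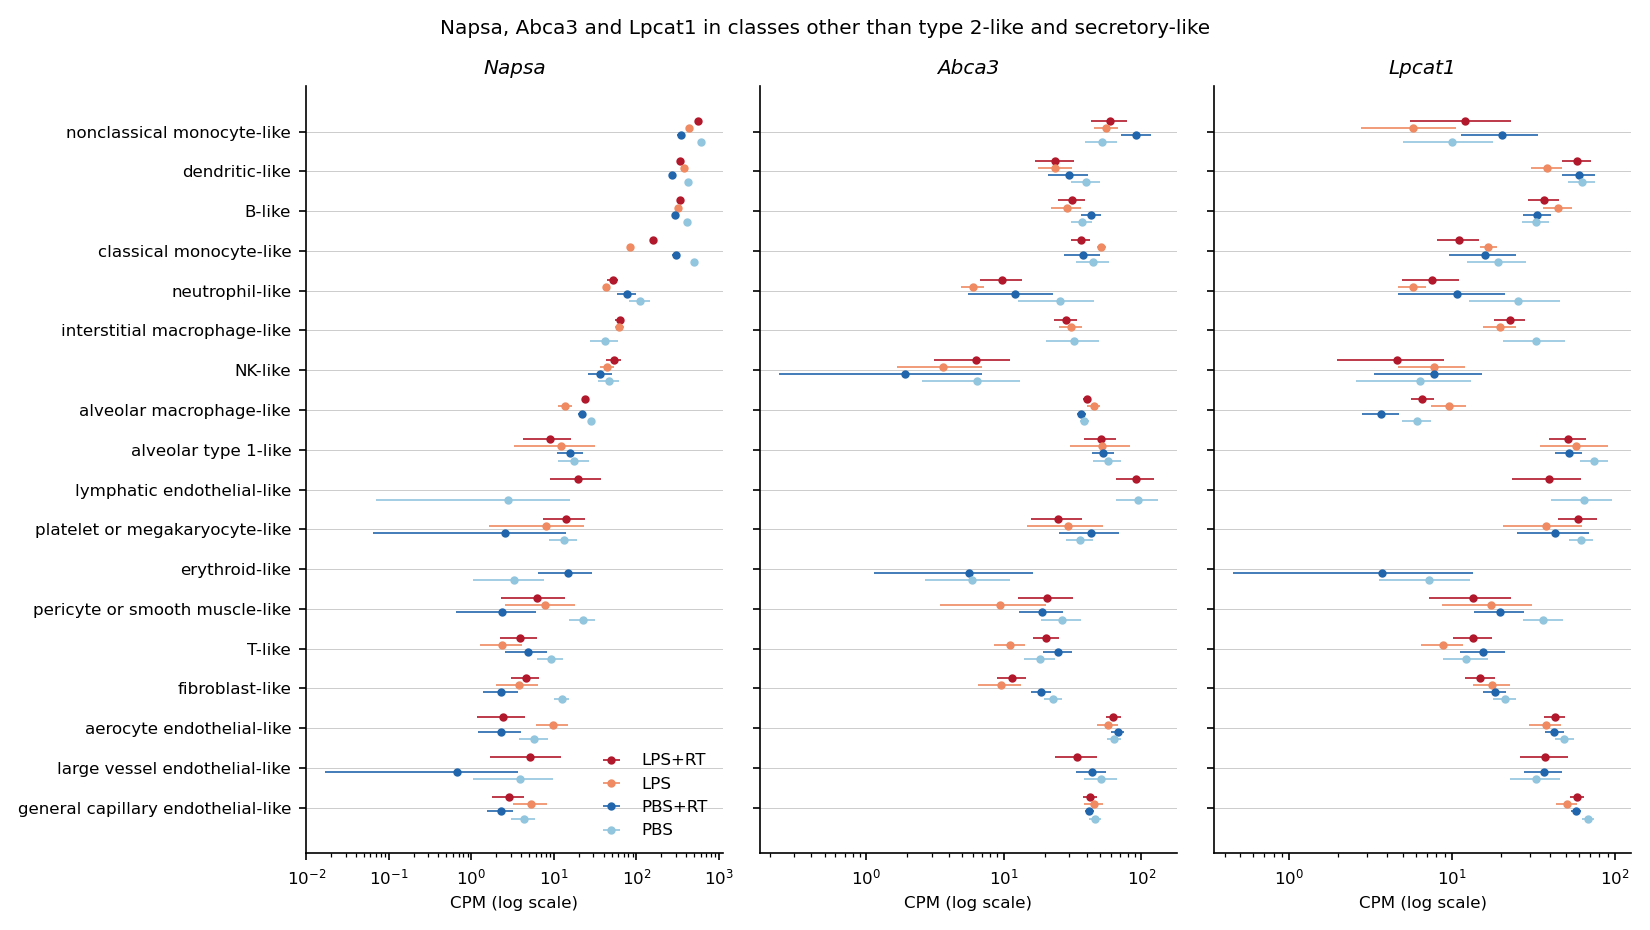
CPM of Napsa, Abca3 and Lpcat1 (log scale) by class and library, points with exact 95% counting intervals, for classes of at least 50 cells. Napsa runs from a few CPM in T-like and capillary classes to 564 CPM in LPS+RT and 609 CPM in PBS nonclassical monocyte-like cells, and Abca3 and Lpcat1 differ less between classes.

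The secretory-like cluster, airway cells marked by the club cell gene Scgb1a1, held 315 droplets of 2 kinds. At a split of 5% of UMIs, set after the values were seen, 147 droplets had Scgb1a1 at or above it: 44 in LPS+RT, 15 in LPS, 34 in PBS+RT and 54 in PBS. These held the collectins and Cxcl15 with little Sftpc. Sftpa1 had 2302 CPM in LPS+RT, 3617 CPM in LPS, 1585 CPM in PBS+RT and 3070 CPM in PBS, and 21 of 147 droplets had no Sftpa1 UMI, while 99 had no Sftpc UMI. Sftpd had 517, 950, 396 and 411 CPM in the same libraries, Cxcl15 759, 444, 503 and 883 CPM, and Sftpb 390, 76.6, 330 and 376 CPM.

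In these droplets 2 cells, 1 of LPS+RT and 1 of PBS, had Sftpc at 1% of UMIs or more. Without them, Sftpc was at 128 CPM in LPS+RT, 107 CPM in LPS, 45.7 CPM in PBS+RT and 167 CPM in PBS, and Sftpa1 at 2185, 3617, 1585 and 3026 CPM, so that Sftpa1 exceeded Sftpc in each library, the reverse of type 2-like cells. Napsa, Lamp3, Slc34a2, Abca3 and Lpcat1 were at or below 20.3 CPM. With the 2 cells included, Sftpd in LPS was 2.31-fold PBS (1.67 to 3.17) and LPS+RT was 0.544-fold LPS (0.399 to 0.748). For Sftpa1, LPS was 1.18-fold PBS (1.02 to 1.36). These had the same directions as in type 2-like cells. Cxcl15 had the opposite directions to type 2-like cells in LPS against PBS, LPS+RT against LPS and PBS+RT against PBS. Its direction in LPS+RT against PBS+RT was the same. Of the 15 LPS droplets, 8 held no Cxcl15 UMI, and the most in 1 droplet was 11. Without the 2 cells Cxcl15 was at 736 CPM in LPS+RT, 444 CPM in LPS and 865 CPM in PBS.

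The other 168 droplets, 31 in LPS+RT, 37 in LPS, 16 in PBS+RT and 84 in PBS, were small, with medians of 1376, 1720, 2602.5 and 857.5 UMIs, and were left unnamed. Of these, 108 had Sftpc at 1% of UMIs or more and 15 had no Sftpc UMI. Their summed Sftpc was 101425 CPM in LPS+RT, 96867 CPM in LPS, 139104 CPM in PBS+RT and 149816 CPM in PBS. Lamp3, Slc34a2 and Abca3 were lower in them than in type 2-like cells of each library, as with Slc34a2 at 785, 911, 1424 and 972 CPM. These are other barcodes of the same libraries and no replicate. Sftpd in LPS was 4.05-fold PBS (3.53 to 4.66) and in LPS+RT 0.535-fold LPS (0.478 to 0.598), Sftpa1 in LPS was 2.09-fold PBS (1.98 to 2.21), and Sftpb was 0.656-fold (0.562 to 0.764), in the directions of the type 2-like cells. The directions differed between LPS+RT and PBS+RT for Sftpc, with 0.729-fold (0.709 to 0.75) in the small droplets and 1.25-fold in type 2-like cells, and for Cxcl15, with 0.802-fold and 1.09-fold.

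**Figure D5:**
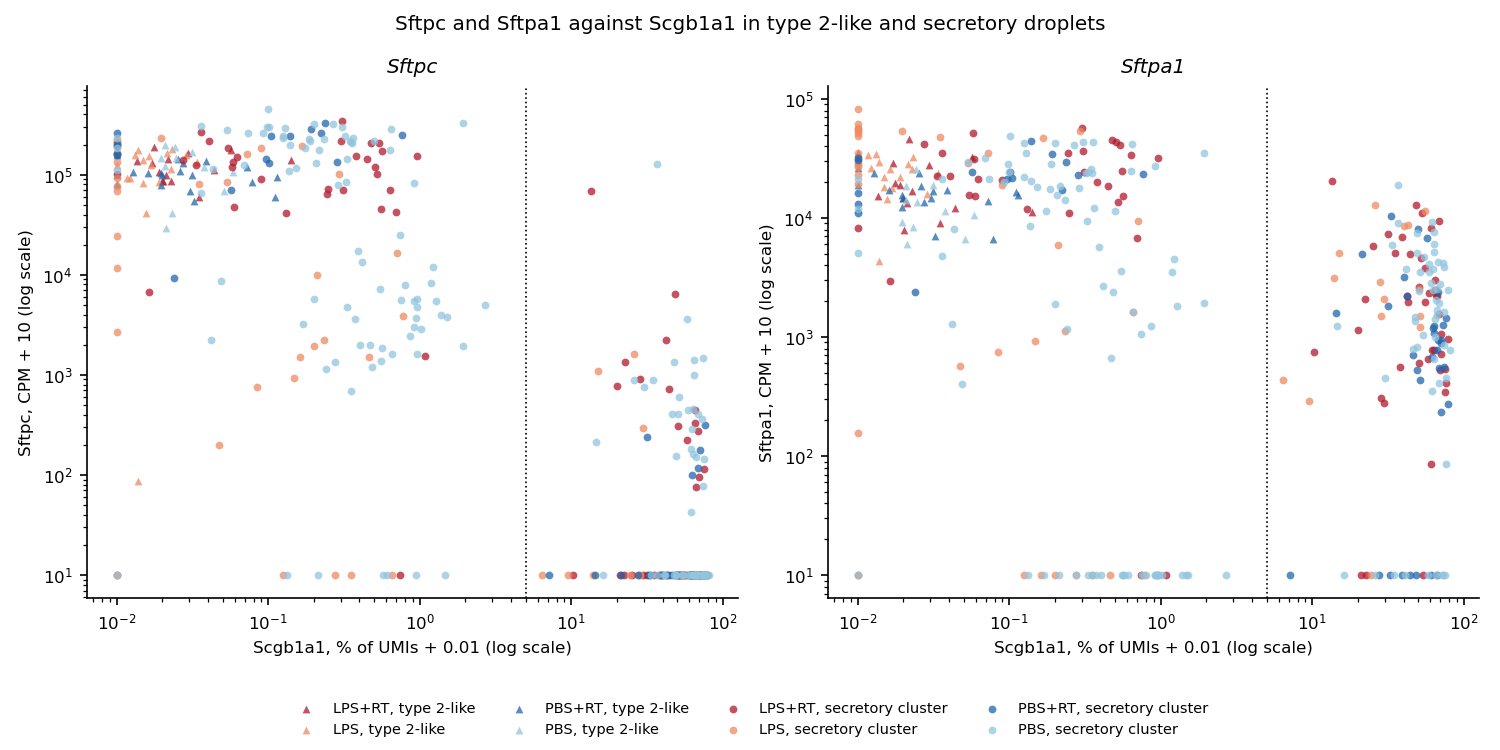
Sftpc (left) and Sftpa1 (right) per droplet, as CPM + 10, against the Scgb1a1 share of UMIs + 0.01%, both on log scales, for type 2-like cells (triangles) and the secretory-like cluster (circles) of each library, with a dotted line at 5%. Right of the line, 99 of 147 droplets lie at no Sftpc, while most hold Sftpa1.

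The genes whose pattern was most like the mean of the members, over 74 sums of class and library and among 2057 genes at 50 CPM or more in type 2-like cells of each library, were Sfta2, Mlc1, Hc, Gm39094, Pla2g1b, Atp6v1c2, Egfl6 and Chia1, with Pearson correlations on log2(CPM + 1) of 0.949 to 0.962. Sums of 1 library share its depth and free RNA, so these are descriptions. Sfta2, a surfactant-associated secreted protein, had 675 CPM in LPS+RT, 499 CPM in LPS, 408 CPM in PBS+RT and 707 CPM in PBS, and its highest level outside type 2-like and secretory-like classes was 13.4 CPM. By the same measure against the mean of the other members, Sftpc had a correlation of 0.976, Cxcl15 0.975 and Lamp3 0.956, and Lpcat1 0.832, Abca3 0.701 and Napsa 0.425.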

How the data were processed

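Gene counts per barcode of 4 single-cell libraries (10x Genomics, 3′ version 3.1) were used as deposited: unnormalized UMI counts, written by Cell Ranger 7.0.1, as recorded per the file headers, and on mm10 per the submitters' processing notes, which also name Seurat 4.3.0. Gene names were taken as the deposited feature tables pair them with identifiers. Barcodes under 500 UMIs or 200 genes, or over 10% mitochondrial UMIs, were dropped, and Scrublet doublets (scanpy 1.11.5) were removed in each library, 1.46% to 2.78% of cells, with the LPS threshold set to the median of the other libraries. The share of barcodes common to libraries was not analysed here. Cells were clustered together (2000 variable genes without the members, 30 components, 15 neighbours, Leiden at resolution 1.5) and clusters named from markers, of which at least 3 had to pass. The dendritic-like class is what the markers named migratory dendritic, and it was given the wider name after its clusters were seen. No cluster was named conventional dendritic. Of the 417 dendritic-like cells, 117 held UMIs of both Ccr7 and Fscn1.

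A level is a gene's UMI sum over the cells of a class in 1 library, relative to all UMIs there (CPM). Levels have exact Poisson, shares Clopper-Pearson and ratios exact conditional binomial 95% intervals. Only the intervals of ratios were run on simulated counts. Those counts were Poisson draws, the model that the intervals assume, so the run checks the code and cannot show coverage of differences between cells. Genes were named by a rule: all members, the 8 genes most alike, the 3 highest and 3 lowest per comparison (not all are printed), and list genes with large differences. The members and lists were chosen with earlier results of these data known. Alternatives covered the filters, doublets, clustering, scaling and yardsticks.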

Additional observations from a re-analysis of the deposited data

Results flagged for a closer look

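In type 2-like cells, the LPS to saline difference of 2 members had opposite directions without and with irradiation, and the difference between the effects was not tested, since each group is 1 library. Lamp3 was lower in LPS+RT than in PBS+RT (log2 ratio -0.62) and higher in LPS than in PBS (0.88). Sftpc was higher in LPS+RT than in PBS+RT (0.33) and lower in LPS than in PBS (-0.13), and the last of these turns to 0.012 without the LPS cell that held 4 Sftpc UMIs.

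In an unnamed cluster with ciliated and secretory markers, used in no comparison, Sftpa1 was at 2334 CPM in 13 LPS cells, against 12.9 CPM in 28 PBS cells. Of the 606 Sftpa1 UMIs, 600 sat in 2 LPS cells with Scgb1a1 at 5% of UMIs or more.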

How the results depend on the processing

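No paired analysis was possible because each group is 1 library, and no library could be left out for the same reason. Of the alternative values for single genes and classes, 1032 were counted as unchanged, 295 as moved and 18 as reversed. Of those for counts and shares, 226 stayed and 64 moved. In type 2-like cells, a ratio could change direction without being counted as reversed. Lpcat1 in LPS against PBS went from 1.05-fold to 0.962-fold without cells high in capillary markers, and was counted as unchanged. Napsa went from 1.11-fold to 0.929-fold in the same comparison and alternative, and was counted as moved. The 62 type 2-like cells limit every ratio, and the causes of the changes below were not tested.

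Across alternatives other than taking cells one by one or the small droplets, Sftpd in LPS against PBS stayed between 2.17-fold and 2.85-fold, Sftpa1 between 1.69-fold and 2.1-fold and Lamp3 between 1.57-fold and 2.12-fold. Sftpd in LPS+RT against LPS stayed between 0.52-fold and 0.589-fold.

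Counts of genes past the size limit are given as higher then lower, for LPS+RT against LPS, LPS against PBS, PBS+RT against PBS and LPS+RT against PBS+RT. With 2-fold as the limit they were 929 and 611, 692 and 1260, 925 and 1066, 736 and 818. With genes at 50 CPM or more they were 612 and 707, 794 and 865, 991 and 902, 665 and 938. With genes at 400 CPM or more they were 38 and 55, 82 and 59, 71 and 81, 84 and 67. With no filter on low counts they were 5091 and 3876, 4221 and 5191, 5438 and 4498, 4445 and 5158. With size factors, LPS+RT against LPS had 987 and 820, LPS against PBS had 668 lower, PBS+RT against PBS had 811 lower, and Sftpc in LPS against PBS was at a log2 ratio of 0.066.

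In LPS+RT against PBS+RT, the count of members lower was 1 with at least 1000 UMIs, 0 with mitochondrial shares up to 20%, 1 with the members left out of the total and 0 without the deepest cell of each library. Type 2-like cells were 0.444%, 0.44%, 0.591% and 0.559% of LPS+RT, LPS, PBS+RT and PBS cells with at least 1000 UMIs. These were clustered anew, and the class then held more cells. Without cells high in capillary markers, an alternative chosen after seeing the data, 1 member was lower in LPS against PBS, 0 were higher in PBS+RT against PBS, and Sftpd in PBS+RT against PBS was at -0.0021 (log2). Without the cell with the fewest Sftpc UMIs, also chosen after seeing the data, Sftpc was at -0.077 in LPS+RT against LPS and 0.012 in LPS against PBS.

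In the small droplets of the secretory-like cluster, also chosen after seeing the data, 2 members were lower in LPS against PBS, and Sftpc and Cxcl15 were at -0.46 and -0.32 in LPS+RT against PBS+RT. There 2853 genes were lower in LPS+RT against LPS, 2350 higher in LPS against PBS and 2399 higher in LPS+RT against PBS+RT.

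Taking cells one by one by their markers gave shares of 2.29%, 4.33%, 1.69% and 2.37% in LPS+RT, LPS, PBS+RT and PBS, mostly cells that clustering put in other classes. There LPS+RT against LPS had 4 members higher and 0 lower, with Sftpa1 at 0.33, Lamp3 at 0.0014, Napsa at 0.22 and Cxcl15 at 0.38 (log2), and 839 genes higher. LPS against PBS had 1 member higher and 4 lower, with Cxcl15 at -0.22. PBS+RT against PBS had 10 members higher, with Sftpc at 0.82 and Napsa at 0.85. LPS+RT against PBS+RT had 10 members lower, with Sftpa1 at -0.97, Sftpc at -1.11, Sftpd at -1.002, Napsa at -0.97 and Cxcl15 at -1.24.

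Of the ratios to free RNA, 50 cases of members other than Napsa, Abca3 and Lpcat1 met the bound with Sftpc as the yardstick, 14 with Sftpa1, 1 with Sftpb and 33 without the top 1% of cells of each class.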
